A study of Mus musculus with 6 samples.

Results

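The proteasome genes were followed in early thymic progenitors, a rare and immature population of the thymus, in mice lacking or carrying Tcf1, a transcription factor of early T-cell development. The genes were those whose single annotated symbol starts with Psma to Psmg and a number, and each was read on the brightest of its probe sets, by the mean of the 6 arrays. The rule found 49 of 18193 genes, of which 47 name a component of the proteasome. They comprise 16 core particle genes, 3 immune subunit genes, 20 regulatory particle genes, 3 activator genes, and 5 genes of assembly chaperones and an inhibitor. The other 2, Psmc3ip and Psme3ip1, name proteins that bind a component, and are given apart. Psme2 has its probe set in common with Psme2b and was therefore not among the genes.

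RNA came from sorted Lin-CD44+CD25-kit+ cells of C57Bl/6 mice aged 10 weeks, and was amplified and hybridized to Affymetrix mouse expression arrays. The 2 groups were Tcf1-/- and Tcf1-/+, with 3 arrays each that the titles call biological replicates. A second label field gives the Tcf1-/+ samples as wild type, and they are named here by their titles. The number of animals behind each array is not stated, and neither is the construction of the Tcf1 allele. If the replicates are not separate animals, the p-values measure only the spread between these arrays.

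The proteasome is the large protease that degrades proteins tagged with ubiquitin. Its barrel-shaped core particle is built of alpha subunits (Psma), which form the gate, and beta subunits (Psmb), some of which cut peptide bonds inside the barrel. The regulatory particle caps the core, where ATPases (Psmc) unfold the substrate and further subunits (Psmd) bind and remove ubiquitin. Cells of the immune system replace the catalytic beta subunits by immune subunits, which favour peptides suited to MHC class I, and the cortical epithelium of the thymus uses a beta subunit of its own, Psmb11. Dividing lymphoid progenitors make much protein and depend on this machinery.

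No proteasome gene passed the test of genotype. Among the 45037 probe sets tested, 0 (0%) reached an adjusted p of 0.05 in limma, and 6.48% had an unadjusted p under 0.05. The lowest adjusted p of a component on the probe set used was 0.742. Of the 47 components 1 had an unadjusted p under 0.05, which is 2.13%, beside 6.78% of all genes (3.38% higher and 3.4% lower in Tcf1-/-). The arrays of the genotypes overlapped for every one of the 47, whereas they did not overlap for 12.2% of all genes (7.22% higher and 4.94% lower). In 30 components (63.8%) the Tcf1-/- mean was lower and in 17 it was higher, where 45.7% of all genes had a lower mean. Of the 33 components with a mean above 9, 24 (72.7%) had a lower Tcf1-/- mean, beside 57.3% of all genes at that level. The median difference, Tcf1-/- minus Tcf1-/+ on the log2 scale as all differences below, was -0.10, beside 0.04 over all genes. Differences ranged from -0.97 to 1.05, and the size of 1 of the 47 exceeded 1 log2 unit, a 2-fold change.

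How much change the arrays leave possible is shown by the confidence intervals. The 95% interval lay wholly within 1 log2 unit of 0 for 16 of the 47 components, beside 43.7% of all genes and 29.8% of genes above background. Background was set at 5.21, the 95th percentile of the control probe sets for bacterial transcripts. For the other 31 components, a 2-fold difference in at least 1 direction remained inside the interval. Standard errors of the differences ranged from 0.21 for Psmd14, the subunit that removes ubiquitin chains, to 0.94 for Psmb5.

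**Figure D1:**
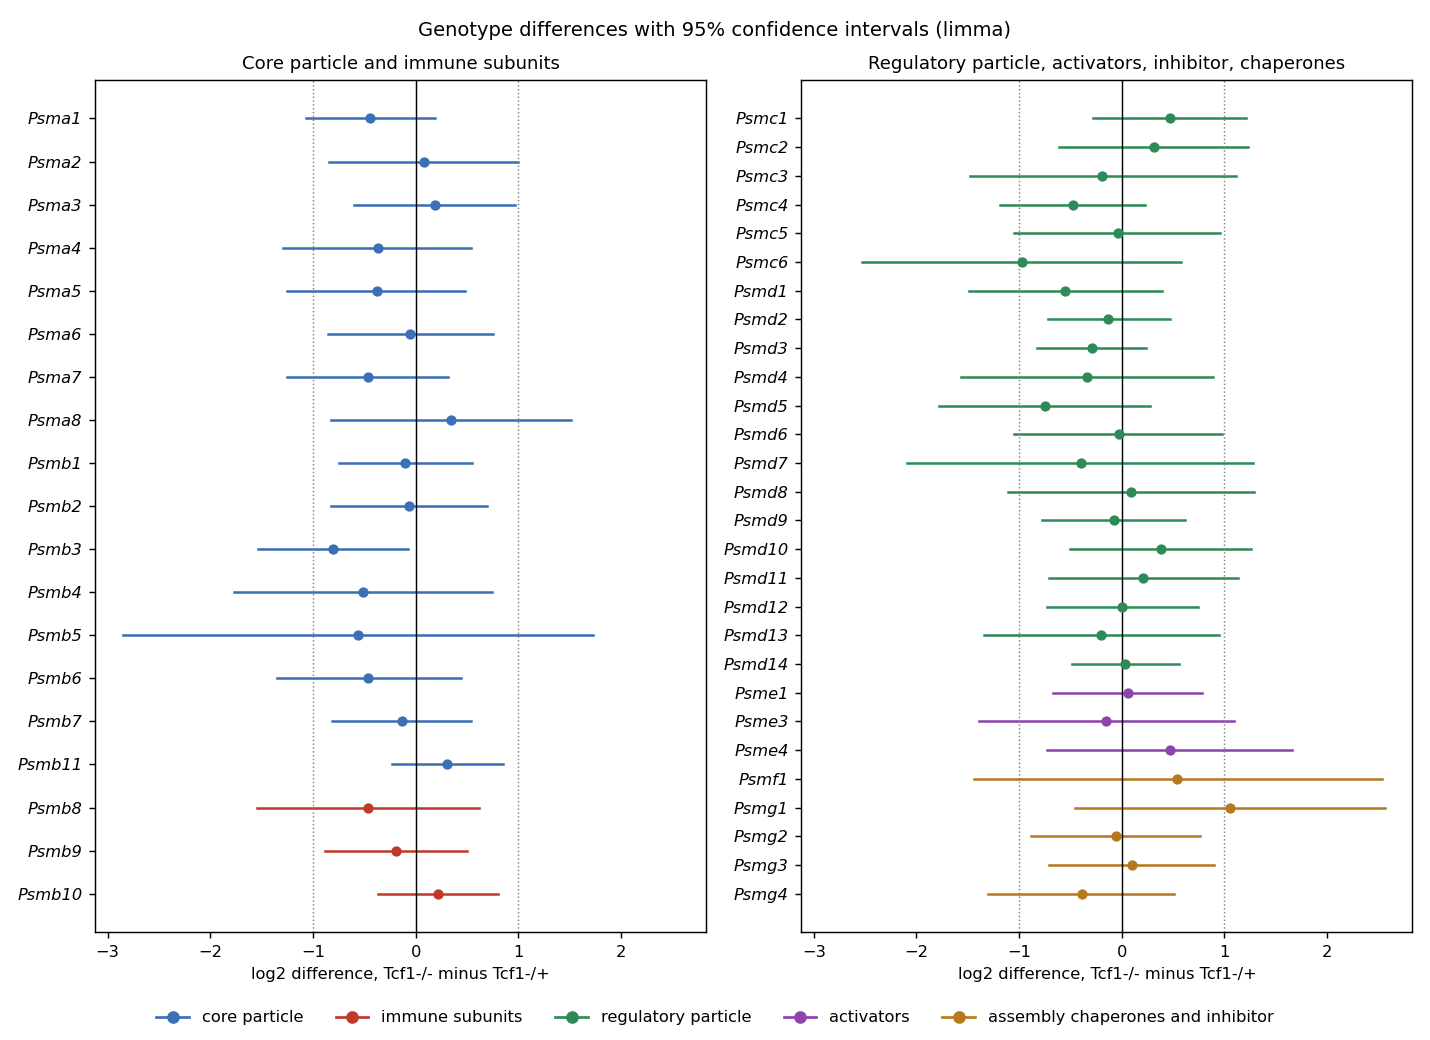
Log2 differences of the 47 proteasome components between Tcf1-/- and Tcf1-/+ (horizontal axis; points) with 95% confidence intervals from limma (bars), coloured by class, with dotted lines at 1 log2 unit either side of 0. Every interval but that of Psmb3 includes 0, and none of the 47 passed the adjusted threshold.

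Part of the spread came from a single array. Tcf1-/- replicate 2 was the lowest of the 6 arrays for 23 of the 47 components, which is 48.9%, beside 19.3% of all genes. Among those with a mean above 9 it was the lowest for 19 of 33 components (57.6%), beside 34.4% of 3096 genes. It was the highest for 4 of the 47, beside 29.2% of all genes, and for 0 of the 33, beside 18.6% of the 3096. It was the lowest for 11 of 16 core particle genes, 10 of 20 regulatory particle genes, 1 of 3 immune subunits and 0 of 5 chaperone and inhibitor genes. On it, 5 of the 47 lay more than 1 log2 unit below the lowest of the other arrays, namely Psmb5, Psmc6, Psmd4, Psmb4 and Psmd5. The same held for 4.13% of all genes. It held for 6.82% of genes with a mean above 9, a set that leaves out Psmb5 and Psmd5, whose means were 7.79 and 8.82. Without that array, Tcf1-/- means were lower for 16 of the 33 components with a mean above 9 (48.5%), beside 49.5% of genes at that level. Over all 47, 21 had lower and 26 higher Tcf1-/- means (49.1% of all genes were lower). The difference of 15 of the 47 changed sign, and the median difference of the 47 was 0.10. The median was also near 0, at 0.01, without Tcf1-/+ replicate 3.

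The array stood apart in some other measures and not in all. It correlated with the other 5 arrays between 0.870 and 0.893 over all probe sets, and the other pairs correlated between 0.913 and 0.933. The 3' minus 5' difference of the Tfrc control probe sets, which reads how far amplified RNA reaches from its 3' end, was 0.0549 there, against -1.08 to -0.624 elsewhere. The same difference for the Gapdh control probe sets was 2.78, within the 1.74 to 2.88 of the other arrays. Kit, part of the sort gate, was at 7.45 there, against 9.60 to 10.80 elsewhere. The mean log2 level of Y-linked probe sets was 4.67, 8.10 and 8.39 on Tcf1-/- replicates 1 to 3 and 4.07, 9.16 and 3.98 on Tcf1-/+ replicates 1 to 3, and with it as a covariate the median of the components was -0.07. The part of the other measures in the low proteasome values was not tested.

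**Figure D2:**
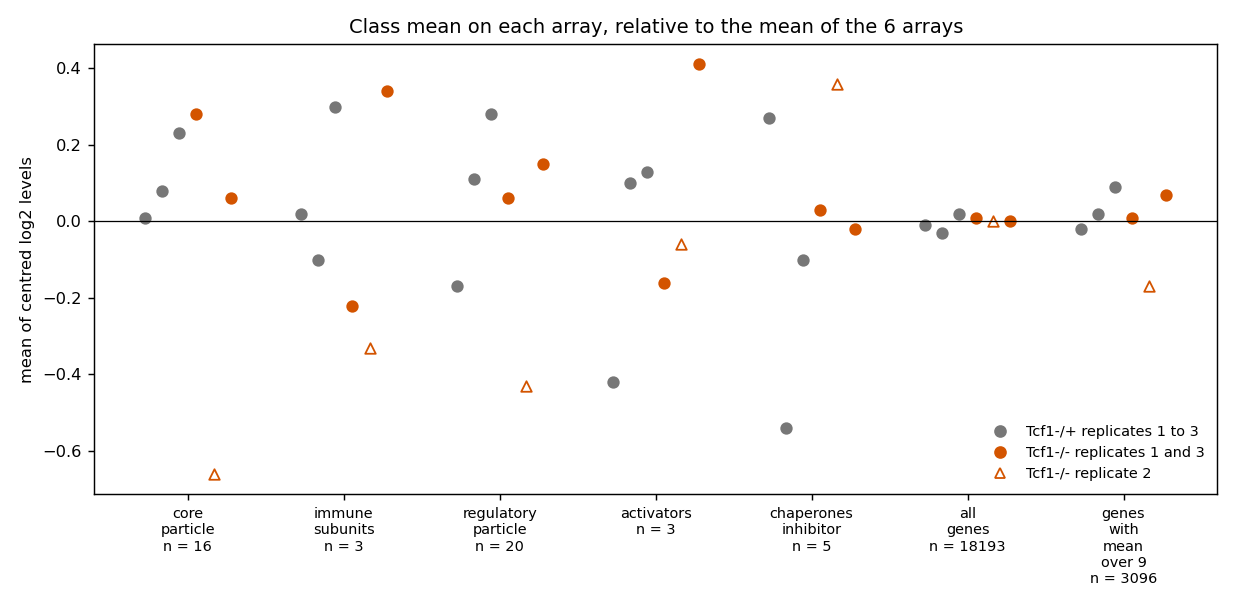
Mean centred log2 level of each proteasome class, of all genes and of genes with a mean above 9 (groups along the horizontal axis, n genes each) on each array, where 0 is the mean of the 6 arrays. Tcf1-/- replicate 2 (open triangle) is at -0.66 for the core particle and -0.43 for the regulatory particle, against -0.17 for genes with a mean above 9 and 0.00 for all genes.

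The core particle had lower Tcf1-/- means in 12 of 16 genes and higher means in 4, with a median difference of -0.25 (0.00 without Tcf1-/- replicate 2). Of the 4, Psma8 and Psmb11 were near background. Without these 2 genes 12 of 14 were lower, with a median of -0.38. Leaving out Tcf1-/- replicate 2 as well made it -0.08, with 8 of the 14 lower. The mean centred level of the 16 genes was 0.28, -0.66 and 0.06 on Tcf1-/- replicates 1 to 3, and 0.01, 0.08 and 0.23 on Tcf1-/+ replicates 1 to 3. So Tcf1-/- replicate 2 lay below all the Tcf1-/+ arrays, replicate 3 among them and replicate 1 slightly above them. Without Psma8 and Psmb11, Tcf1-/- replicate 1 was at 0.23, under the 0.32 of Tcf1-/+ replicate 3. Tcf1-/- replicate 2 was then at -0.74. The SD within Tcf1-/- exceeded that within Tcf1-/+ in 14 of the 16 genes. The same held for 10641 of all 18193 genes and for 1869 of the 3096 genes with a mean above 9. In the regulatory particle it held for 13 of 20 genes, with median SDs of 0.37 in Tcf1-/- and 0.45 in Tcf1-/+. In the chaperones and inhibitor it held for 1 of 5, with median SDs of 0.47 and 0.68.

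Psmb3, a structural beta subunit, had the lowest unadjusted p of the components. Its log2 levels were 10.86, 10.19 and 10.19 on Tcf1-/- replicates 1 to 3 and 11.57, 11.21 and 10.86 on Tcf1-/+ replicates 1 to 3, an order kept in the lists of levels below. The highest Tcf1-/- array and the lowest Tcf1-/+ array met at the same rounded value. The means were 10.41 ± 0.38 and 11.21 ± 0.36 (SD, n = 3 each), a difference of -0.80 with an interval of -1.53 to -0.07 and an adjusted p of 0.742 from limma. Its other probe set differed by 0.08, so the size and sign depended on the probe set. Without Tcf1-/- replicate 2 the difference was -0.69.

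The catalytic subunits differed in the same direction and by less than their spread. Psmb5, the chymotrypsin-like subunit, was at 8.89, 5.35 and 8.31 in Tcf1-/- and at 7.53, 8.24 and 8.45 in Tcf1-/+. Its level on replicate 2 was close to background, and on the other 2 Tcf1-/- arrays it was within or above the Tcf1-/+ range. The difference of -0.56 had an interval of -2.85 to 1.73, the widest here, and became 0.53 without that array. Psmb6, the caspase-like subunit, was at 10.19, 8.89 and 9.54 against 9.73, 10.12 and 10.13, a difference of -0.46 (SE 0.37) that was -0.13 without Tcf1-/- replicate 2. Psmb7, the trypsin-like subunit, was at 11.61, 11.13 and 11.19 against 11.43, 11.08 and 11.83, a difference of -0.13 (SE 0.27) that was 0.06 without Tcf1-/+ replicate 3. All 3 overlapped between genotypes.

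Psmb4, a beta subunit with no catalytic site, showed the same pattern as Psmb5. It was at 11.28, 9.64 and 11.40 in Tcf1-/- and at 11.29, 10.98 and 11.58 in Tcf1-/+, and its other probe set differed by -0.50, close to the -0.51 of the one used. Without Tcf1-/- replicate 2 the difference was 0.05. Among the alpha subunits, 5 had lower and 3 higher Tcf1-/- means, and Tcf1-/- replicate 2 was the lowest array for 7 of the 8. Psma3 differed by 0.19 (SE 0.32), or 0.00 to 0.43 with single arrays left out, and Psma2 by 0.08 (SE 0.38), and leaving out single arrays moved Psma2 between -0.24 and 0.33. A further, dimmer probe set of Psma3 was at 8.60, 8.51 and 8.47 against 7.81, 7.94 and 7.70. That difference of 0.71 had the lowest unadjusted p of the 100 probe sets of components, 0.00792, and an adjusted p of 0.577 from limma.

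The tissue-restricted subunits were at background. Psmb11, the subunit of cortical thymic epithelium, was at 4.69, 4.88 and 4.98 in Tcf1-/- and at 4.29, 4.80 and 4.53 in Tcf1-/+, under 5.21 on all 6 arrays, so no difference was measured. Of 8 markers of that epithelium measured, Psmb11 among them, 6 had a genotype mean above background and 2, Psmb11 and Foxn1, did not. Tcf1-/- means were higher in 7 of the 8 and lower in 1, where 45.7% of all genes had a lower mean. None had an unadjusted p under 0.05, beside 6.78% of all genes. For 2 (25%), Dll4 and Prss16, every Tcf1-/- array was above every Tcf1-/+ array, as in 7.22% of all genes. The mean centred level of the list was 0.10, 0.05 and 0.17 in Tcf1-/- and -0.18, -0.04 and -0.10 in Tcf1-/+. Psma8, a testis subunit, was under background on 5 arrays and at 6.21 on Tcf1-/- replicate 1, and its difference of 0.34 was -0.16 without that array.

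**Figure D3:**
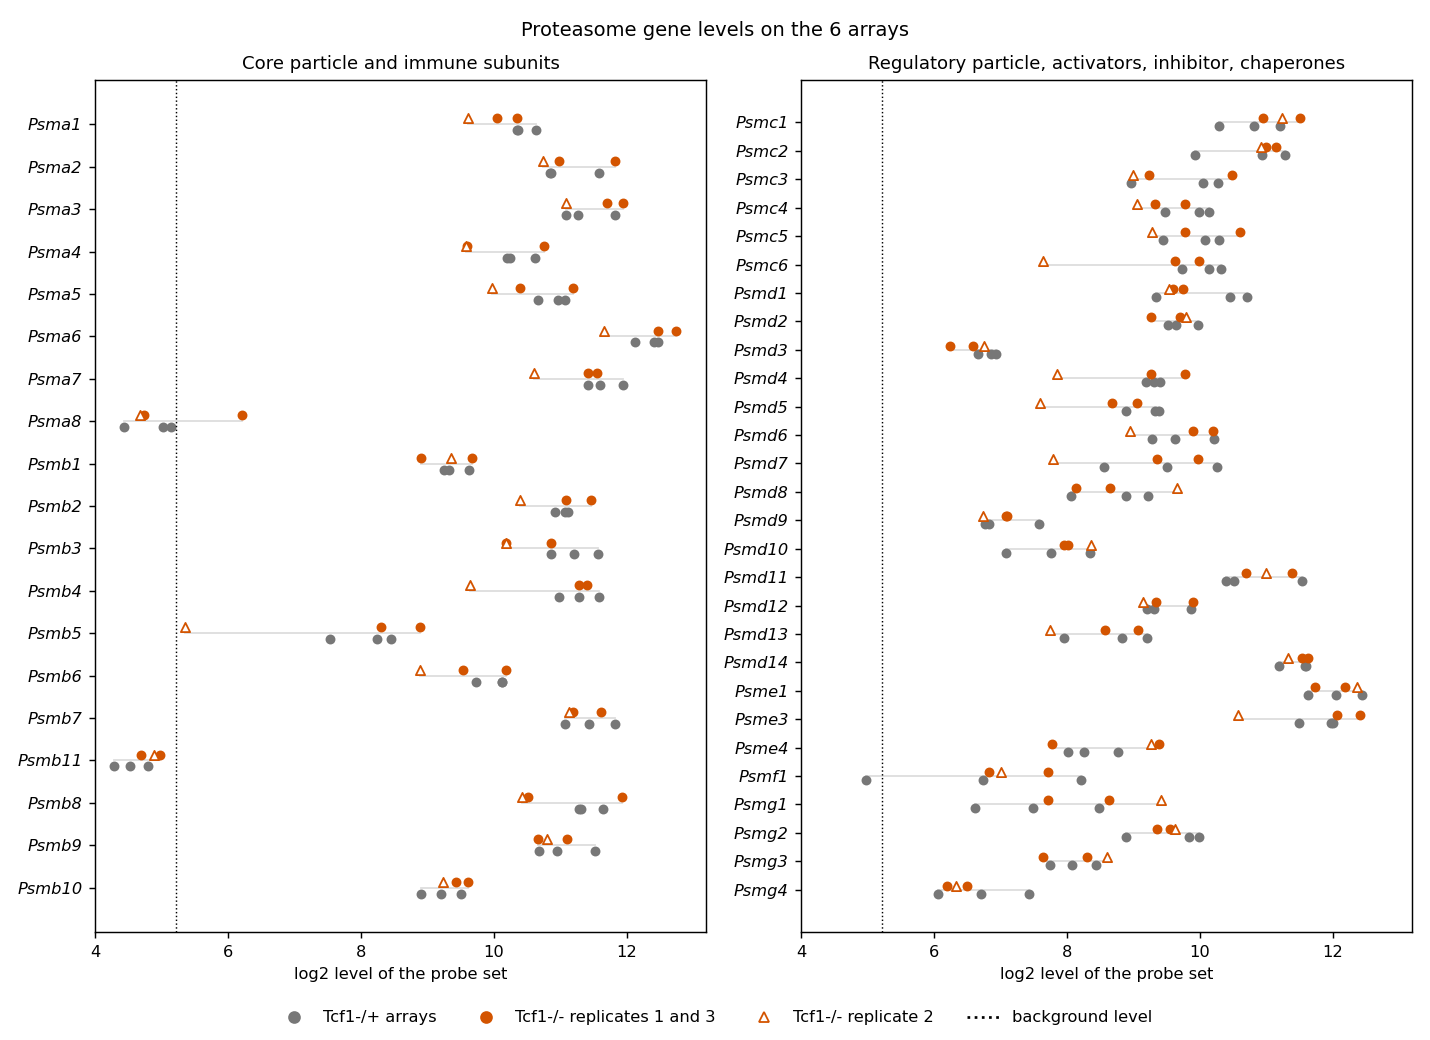
Log2 level of each of the 47 components (rows) on the Tcf1-/+ arrays (grey), Tcf1-/- replicates 1 and 3 (filled orange) and Tcf1-/- replicate 2 (open triangles), with the background level of 5.21 dotted. The triangle stands far to the left for Psmb5 at 5.35 and Psmc6 at 7.64, and the colours overlap in every row. Levels of different genes are not comparable, since each has probes of its own.

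The immune subunits had lower Tcf1-/- means in 2 of 3 genes, with a median difference of -0.19 (0.04 without Tcf1-/+ replicate 3). Psmb8, which replaces Psmb5, was at 10.51, 10.43 and 11.93 in Tcf1-/- and at 11.31, 11.28 and 11.65 in Tcf1-/+, a difference of -0.46 (SE 0.44). That difference was -0.19 without Tcf1-/- replicate 2 and -0.94 without Tcf1-/- replicate 3, and on a dimmer probe set it was 0.20. Psmb9, which replaces Psmb6, was at 10.67, 10.81 and 11.11 against 10.68, 10.96 and 11.52, a difference of -0.19 (SE 0.28) that was 0.04 without Tcf1-/+ replicate 3. Psmb10, which replaces Psmb7, was at 9.61, 9.23 and 9.43 against 9.51, 8.91 and 9.20, a difference of 0.22 (SE 0.24) that was 0.07 without Tcf1-/+ replicate 2. The genotypes overlapped for each of the 3 and adjusted p-values from limma were at least 0.914.

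Immune and constitutive partners were also compared within each array, where only the change of the log2 ratio between arrays has a meaning. For Psmb8 over Psmb5 it was 1.63, 5.08 and 3.62 in Tcf1-/- and 3.78, 3.04 and 3.20 in Tcf1-/+. The extremes were both Tcf1-/- arrays, and the means differed by 0.10. For Psmb9 over Psmb6 the means differed by 0.27 and for Psmb10 over Psmb7 by 0.35, and the genotypes overlapped in both.

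The immune subunits serve the class I pathway, whose other genes were read from a list. Of 13 processing and presentation genes, 10 had higher and 3 lower Tcf1-/- means, with a median of 0.20, 0 passing the adjusted threshold, and 2 (15.4%) at an unadjusted p under 0.05, beside 6.78% of all genes. H2-D1, a class I heavy chain whose probes may also read related heavy chains, was at 12.75, 12.83 and 12.88 against 11.84, 12.45 and 11.86, a difference of 0.78 (SE 0.24). Tapbp, which loads peptides onto class I, was at 11.48, 11.78 and 11.26 against 10.87, 10.97 and 10.76, a difference of 0.64 (SE 0.22). B2m, the light chain of class I, was at 13.81, 14.03 and 13.90 against 13.38, 13.68 and 13.70, a difference of 0.33 (SE 0.20). In these 3 of the 13 genes (23.1%) every Tcf1-/- array was above every Tcf1-/+ array, as in 7.22% of all genes. Tap1, the peptide transporter gene that lies beside Psmb9, differed by 0.04 (SE 0.25), and Tap2, which lies near Psmb8, by -0.03 (SE 0.24). Interferon-stimulated markers, 5 of 7 with higher Tcf1-/- means, had mean centred levels of -0.50, 0.92 and 0.73 against -0.39, -0.06 and -0.69, and their part in these values was not tested.

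The regulatory particle had lower Tcf1-/- means in 13 of 20 genes and higher in 7, with a median difference of -0.10 (0.14 without Tcf1-/- replicate 2 and 0.03 without Tcf1-/+ replicate 3). Of the ATPases, 4 of 6 had lower means. Psmc6 was at 9.62, 7.64 and 9.99 in Tcf1-/- and at 9.73, 10.13 and 10.32 in Tcf1-/+. Its difference of -0.97 (SE 0.64), the most negative of the 47, was -0.25 without Tcf1-/- replicate 2. A dimmer probe set was at 5.31, 7.14 and 7.15 against 7.57, 5.90 and 8.05, a difference of -0.64 (SE 0.75). Its lowest value was on Tcf1-/- replicate 1 and close to background. Psmc1 was at 11.51, 11.23 and 10.95 against 10.28, 10.81 and 11.20, a difference of 0.47 (SE 0.30) that was 0.23 without Tcf1-/+ replicate 1. Psmc2 differed by 0.31 (SE 0.38) and by -0.08 without Tcf1-/+ replicate 1.

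Among the Psmd genes 9 of 14 had lower Tcf1-/- means. Psmd1, a scaffold of the base, was at 9.60, 9.53 and 9.74 against 9.34, 10.45 and 10.71, a difference of -0.55 (SE 0.39), or -0.96 without Tcf1-/+ replicate 1 and -0.27 without Tcf1-/+ replicate 3. Here the spread lay in Tcf1-/+, whose replicate 1 was the lowest of all arrays. Psmd5, which helps assemble the base and leaves the finished particle, was at 8.68, 7.59 and 9.06 against 9.38, 9.33 and 8.88, a difference of -0.75 (SE 0.42) that was -0.33 without Tcf1-/- replicate 2. Psmd10, another such chaperone, differed by 0.38 (SE 0.36), or 0.06 without Tcf1-/+ replicate 1 and 0.69 without Tcf1-/+ replicate 2, and Psmd9, the third, by -0.08 (SE 0.29). Psmd14 was the most narrowly measured component, at 11.53, 11.32 and 11.63 against 11.58, 11.19 and 11.60. Its interval of -0.49 to 0.56 is among those that lie within 1 log2 unit of 0.

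The activators open the core gate without ubiquitin, and their median difference was 0.06 (-0.15 without Tcf1-/+ replicate 1). Psme1, the interferon-inducible cytoplasmic activator, was at 11.73, 12.36 and 12.19 against 11.63, 12.44 and 12.05, a difference of 0.06 (SE 0.30) that lay between -0.15 and 0.26 with single arrays left out. Psme3, a nuclear activator, was at 12.41, 10.57 and 12.06 against 11.49, 12.00 and 11.98. Its difference was -0.15 (SE 0.51), and 0.41 without Tcf1-/- replicate 2. Psme4, a nuclear activator with roles in chromatin, was at 7.78, 9.27 and 9.38 against 8.01, 8.26 and 8.76, a difference of 0.47 (SE 0.49), or 0.18 without Tcf1-/- replicate 3 and 0.98 without Tcf1-/- replicate 1, and its probe sets did not share a sign. Psmf1, an inhibitor of the core particle, was at 6.82, 7.0 and 7.71 against 8.21, 4.97 and 6.73. Its difference of 0.54 (SE 0.81) became -0.29 without Tcf1-/+ replicate 2.

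The chaperones of the alpha ring and the inhibitor were the class in which Tcf1-/- replicate 2 was the lowest array for no gene. Their median difference was 0.10 (-0.11 without that array and -0.29 without Tcf1-/+ replicate 2). Psmg1 was at 8.63, 9.41 and 7.71 in Tcf1-/- and at 6.62, 8.48 and 7.49 in Tcf1-/+. Its difference of 1.05 (interval -0.46 to 2.56) was the most positive of the 47, with an adjusted p of 0.861 from limma, and lay between 0.59 and 1.53 with single arrays left out. Psmg2, its partner in a heterodimer, was at 9.36, 9.63 and 9.55 against 9.84, 8.89 and 9.99, a difference of -0.06 (SE 0.34) that lay between -0.40 and 0.15 with single arrays left out. Psmg3 differed by 0.10 (SE 0.33) and by -0.11 without Tcf1-/- replicate 2. Psmg4 differed by -0.39 (SE 0.37), or -0.04 without Tcf1-/+ replicate 1 and -0.73 without Tcf1-/+ replicate 2. A dimmer probe set of Psmg3, at 6.85, 6.86 and 7.16 against 6.28, 6.42 and 6.30, differed by 0.63 with an adjusted p of 0.659 from limma. Pomp, the maturation factor of the beta ring, was at 11.33, 10.61 and 11.44 against 11.11, 11.10 and 11.07, a difference of 0.03 (SE 0.27).

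**Figure D4:**
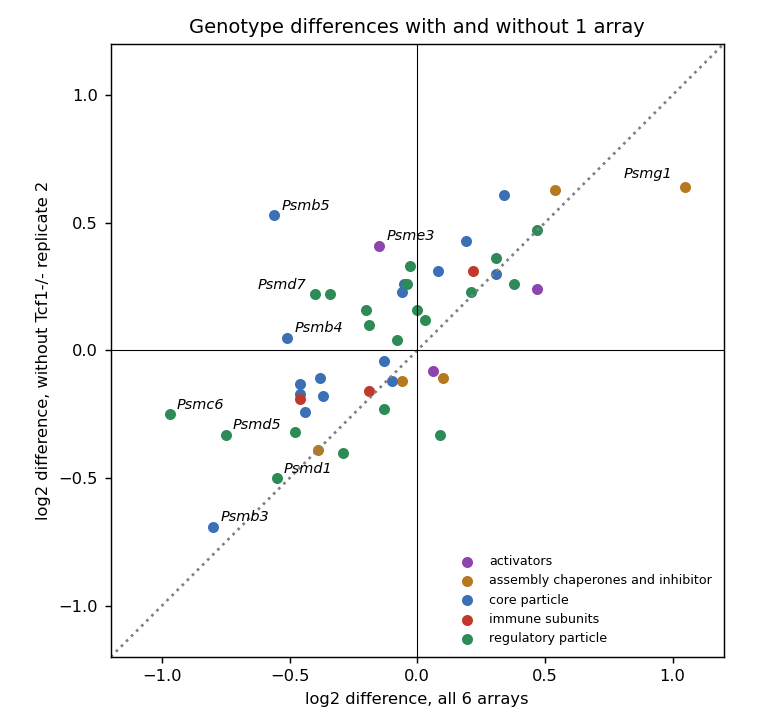
Log2 difference of each component over all 6 arrays (horizontal axis) and without Tcf1-/- replicate 2 (vertical axis), coloured by class, with the dotted line marking equal values. Most points lie above the line, Psmb5 moves from -0.56 to 0.53, and Psmb3 stays near the line at -0.80 and -0.69.

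The 2 genes caught by the rule that name no component had lower Tcf1-/- means. Psme3ip1, which encodes a partner of Psme3, was at 8.18, 8.31 and 8.74 against 8.85, 8.96 and 9.59, without overlap, a difference of -0.72 (SE 0.29) with an adjusted p of 0.762 from limma. Psmc3ip, a factor of meiotic recombination, differed by -0.69 (SE 0.48). The probe set that Psme2 and Psme2b have in common differed by -0.02 (SE 0.49).

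Where a gene had several probe sets they often differed. Of 23 components with more than 1 probe set above background, 12 had the same sign on all and 11 did not. The mixed genes included Psma1, Psmb1, Psmb3, Psmb8, Psmd4 and Psmd6.

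Promoter sequences were taken from RefSeq (GRCm38.p6) to set the regulators of proteasome genes beside their possible sites. The transcription factor Nfe2l1 raises proteasome genes when the protease is limiting, with a small Maf partner such as Mafk, through antioxidant response elements, and NF-Y (Nfya, Nfyb, Nfyc) binds CCAAT boxes. The stretches below run from 250 to 11 bases before the annotated start and are shown for Psmb5 and Psmc6, the components that lay farthest below the other arrays on Tcf1-/- replicate 2, and for Psmb3, that of lowest unadjusted p. They lie at chr14:54618006-54618245 (Psmb5, minus strand), chr14:45329574-45329813 (Psmc6, plus strand) and chr11:97703184-97703423 (Psmb3, plus strand). Capitals mark matches on either strand to the antioxidant response element core (TGACNNNGC) in Psmb5 and Psmc6, and in Psmb3 to an interferon-response repeat (GAAANNGAAA) followed by a pair of CCAAT boxes.
Psmb5: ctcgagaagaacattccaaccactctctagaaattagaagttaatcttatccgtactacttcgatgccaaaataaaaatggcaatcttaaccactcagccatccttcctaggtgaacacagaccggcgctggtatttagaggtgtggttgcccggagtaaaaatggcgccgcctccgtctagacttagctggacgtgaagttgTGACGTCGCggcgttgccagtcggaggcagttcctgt
Psmc6: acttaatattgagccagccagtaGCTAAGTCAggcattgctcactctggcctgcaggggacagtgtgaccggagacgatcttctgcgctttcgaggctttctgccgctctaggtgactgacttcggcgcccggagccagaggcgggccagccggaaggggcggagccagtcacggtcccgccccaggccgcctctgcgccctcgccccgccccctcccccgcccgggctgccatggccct
Psmb3: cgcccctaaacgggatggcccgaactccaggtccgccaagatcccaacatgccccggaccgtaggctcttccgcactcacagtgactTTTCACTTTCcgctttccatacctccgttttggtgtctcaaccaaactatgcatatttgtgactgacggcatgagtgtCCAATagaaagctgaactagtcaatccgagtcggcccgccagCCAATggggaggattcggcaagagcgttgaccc

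The element core was found in the promoter window of 6 of 39 components with one in the table, which is 15.4%, beside 14% of 27025 genes. It was in the windows of Psmb5, Psmb6, Psmc6, Psmd9, Psmd12 and Psme4. CCAAT boxes were found in 14 of the 39, which is 35.9%, beside 41.1% of genes. The interferon-response repeat was found in 5, which is 12.8%, beside 3.99% of genes, and these were Psmb3, Psmd4, Psmd9, Psme1 and Psmg4. Windows ran from 250 bases before to 50 after the start, both strands were searched, and the motifs did not overlap in the stretches printed. A match is a description of the letters and not a measured site.

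The regulators themselves were mixed. Of 14 measured, 7 had higher and 7 lower Tcf1-/- means, 0 passed the adjusted threshold and 3 (21.4%) had an unadjusted p under 0.05, beside 6.78% of all genes. Nfe2l1 was at 8.97, 9.45 and 8.76 against 8.93, 8.92 and 8.84, a difference of 0.16 (SE 0.24) with overlap. Mafk was at 8.21, 8.01 and 8.06 against 6.77, 7.70 and 7.30, a difference of 0.83 (SE 0.28). Nfyc was at 6.52, 7.16 and 6.48 against 8.17, 8.27 and 7.25, a difference of -1.18 (SE 0.36), and Nfya at 11.54, 11.25 and 11.66 against 12.38, 11.81 and 12.13, a difference of -0.62 (SE 0.24). Nlrc5, an activator of class I genes, was at 9.71, 10.75 and 9.62 against 9.36, 9.21 and 8.86, a difference of 0.88 (SE 0.36). These 4 regulators of 14 (28.6%) did not overlap between genotypes, beside 12.2% of all genes, while Nfyb, the remaining NF-Y subunit, differed by -0.03 (SE 0.56). Adjusted p-values from limma were 0.707, 0.658, 0.743 and 0.772 for Mafk, Nfyc, Nfya and Nlrc5.

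Accessory factors of the proteasome, among them those that deliver substrates or recycle ubiquitin, were read from a list too. Of 17 measured, 8 had higher and 9 lower Tcf1-/- means, with a median of -0.13, 0 passing the adjusted threshold and 0 at an unadjusted p under 0.05. Tcf1-/- replicate 2 was the lowest array for 9 of them. The genotypes did not overlap for 3 of the 17 (17.6%, beside 12.2% of all genes), namely Akirin2, Sem1 and Vcp. Akirin2, which takes proteasomes into the nucleus, differed by 0.56 (SE 0.26). Sem1, a small subunit of the lid that the symbol rule leaves outside the 47, differed by -0.19 (SE 0.18). Vcp, an ATPase that extracts substrates, differed by -0.33 (SE 0.19). Of the ubiquitin genes and activating enzymes 2 were measured, and Uba6 differed by -0.14 (SE 0.36), while both means of Uba1y lay under background.

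The cells of the gate were checked by their markers. Cd44 and Ptprc, which encodes a pan-leukocyte marker, differed by 0.12 (SE 0.30) and 0.05 (SE 0.29) and were well above background on all arrays. Kit was also above background on all arrays and differed by -1.36 (SE 0.71), the lowest array being Tcf1-/- replicate 2. Cd34 and Flt3, markers of multipotent progenitors, differed by -1.24 (SE 0.36) and -1.53 (SE 0.42), and Il7r, the receptor of a lymphoid cytokine, by 2.00 (SE 0.40), each with an unadjusted p under 0.05 and none past the adjusted threshold. They were 3 of the 10 measured genes of this list (30%), beside 6.78% of all genes. Of the 10, 4 had higher and 6 lower Tcf1-/- means. The genotypes did not overlap for 4 (40%, beside 12.2% of all genes), namely Cd34, Flt3, Hes1 and Il7r. Notch1, Hes1 and Gata3 differed by -0.38 (SE 0.36), -0.50 (SE 0.27) and -0.39 (SE 0.40). Il2ra, which encodes the CD25 that the gate excludes, was between 9.22 and 10.97, above background on all arrays, and differed by 0.69 (SE 0.50). Innate lymphoid and NK markers had higher Tcf1-/- means in 7 of 7 measured, where 45.7% of all genes had a lower mean. Of these, 5 (71.4%, beside 6.78% of all genes) had an unadjusted p under 0.05. Zbtb16 and Ncr1 differed by only 0.01 (SE 0.23) and 0.07 (SE 0.65), and Ncr1 lay under background in both genotypes. The mean centred level of the 7 was 0.53, 1.30 and 1.25 in Tcf1-/- and -1.14, -0.98 and -0.94 in Tcf1-/+. Of 5 dendritic markers, 4 had lower Tcf1-/- means, beside 45.7% of all genes, and 2 (40%, beside 6.78%) an unadjusted p under 0.05. These 2 were H2-Eb1, which differed by -1.69 (SE 0.66), and Cd74, which differed by -1.61 (SE 0.46). H2-Aa and H2-Ab1 differed by -0.50 (SE 1.10) and -0.43 (SE 1.14). Itgax went the other way, at 1.13 (SE 0.69). Tcf1-/- means were higher for 4 of 4 erythroid, 5 of 7 myeloid and 4 of 5 B-lineage markers (45.7% of all genes were lower). In these 3 lists 0 had an unadjusted p under 0.05, and 1, 1 and 2 had both means under background. The mean centred level of the erythroid list was 1.31, 0.11 and 1.10 against -1.70, -1.42 and 0.61. For the myeloid list it was 0.14, -0.37 and 1.09 against -0.97, -1.14 and 1.26. So Tcf1-/+ replicate 3 lay among the Tcf1-/- arrays in the erythroid list and above them in the myeloid list. No marker of any list passed the adjusted threshold. Their part in the proteasome values was not tested, and in a sorted bulk sample fewer cells of a type and less RNA per cell cannot be told apart.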

How the data were processed

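The authors deposited log2 values per probe set, between arrays of near-equal medians; the method of summary and normalization is not stated in the labels, and the scale was read from the values. They were used as deposited. Per the labels' protocols, RNA was amplified before labelling from about 3 ng per 1000 cells. Of 45101 probe sets, 64 controls were left out. Gene names came from the platform annotation, and 34945 probe sets had 1 symbol. The genotype test was the moderated test of limma 3.58.1 (R 4.3.3), two-sided, on 6 arrays without covariates, adjusted by Benjamini-Hochberg over 45037 probe sets at 0.05, and tested on simulated data. An exact test of 3 against 3 arrays cannot reach 0.05 and was not used. SEs and intervals are limma's.

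The members, classes and lists were chosen with earlier results of these data known. Named genes were the catalytic and immune subunits, activators and inhibitor, the 3 most positive and negative differences above background in the core, regulatory and chaperone classes, and any gene with an unadjusted p under 0.05. Other members were named after their values were seen. Arrays have no read depth, and their number limits the precision. Tcf7, which encodes Tcf1, was not analysed here, so the targeted gene gave no check of the labels.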

Additional observations from a re-analysis of the deposited data

How the results depend on the processing

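Besides a replicate block, the fits were repeated with quantile normalization, a common median, a filter on mean level, a floor at background, array weights, the Y-linked level as a covariate, trended and robust moderation, each array left out, other probe sets, and members above background only. Under the 14 alternative fits no component passed the adjusted threshold, and the lowest adjusted p of one was 0.486 (limma). Same-numbered arrays correlated at 0.03, 0.045 and 0.012 in their deviations from the group means, so the numbers were not taken as pairs. With the replicate block 0 probe sets were called, 3074 had an unadjusted p under 0.05 and the median of the components was -0.10. With the filter on mean level 1631 probe sets had an unadjusted p under 0.05, against 2917, where fewer probe sets were tested. The median of the immune subunits was 0.20 on the second brightest probe set, which changes Psmb8 alone, and that of the activators was -0.07 when adjusted for the level of Y-linked probe sets. When single arrays were left out, medians ranged from -0.23 to 0.10 for all components, -0.33 to 0.00 for the core particle, -0.38 to 0.04 for the immune subunits, -0.20 to 0.14 for the regulatory particle, -0.15 to 0.26 for the activators and -0.29 to 0.28 for the chaperones and inhibitor, where Tcf1-/+ replicate 2 gave -0.29. Of the 26 named components, 14 kept their sign under all the alternative fits and 12 did not. Signal near background limits Psma8 and Psmb11, and with members above background only the median of the core particle was -0.37, against -0.25.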
